A study of Mus musculus with 45 samples.

Results

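Expression of 10 genes known as targets of cyclic AMP (cAMP) signalling was followed through the conversion of mouse fibroblasts to muscle progenitor cells. The genes were chosen by name, with earlier results of these data known. They were the nuclear receptors Nr4a1, Nr4a2 and Nr4a3, the repressor Crem and the phosphodiesterases Pde4b, Pde4d and Pde10a. The others were the kinase Sik1, the clock gene Per1 and the coactivator Ppargc1a. Together they are 10 of 35675 genes in the files, and all 10 were among the 17325 genes that passed the filter on low counts. Because of that choice, counts among them set beside all genes are descriptions and not independent evidence. RNA was sequenced from 45 libraries in 15 groups of 3. Every group carried the Tg:Pax7-nGFP reporter, a nuclear GFP that marks Pax7-expressing cells, on a C57BL6;DBA2 background, and the labels name a dox-inducible MyoD; MyoD is the transcription factor that turns fibroblasts into muscle cells. Mouse embryonic fibroblasts (MEFs) were taken untreated or after 2, 4, 6, 8 or 10 days of doxycycline (Dox), which switched on MyoD, given alone ("MyoD alone") or together with the small molecules named F/R/C in the labels ("F/R/C"). Induced myogenic progenitor cells (iMPCs) were profiled in bulk, after 13 days of Dox and F/R/C and growth in F/R/C medium, and as Pax7-nGFP-positive cells purified by cell sorting, for which the labels give no such treatment. Primary myoblasts, the muscle precursors grown from muscle tissue, were profiled in bulk and as sorted Pax7-nGFP-positive cells. The labels do not spell out F/R/C; in the published protocol for these cells the letters stand for forskolin, RepSox and a GSK3 inhibitor, and the 3 were always given together, so an effect of 1 compound cannot be told apart from the others. Nothing in the labels says whether libraries of 1 group came from separate cultures or animals, so p-values measure the spread between these libraries, which may be technical.

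Forskolin activates adenylyl cyclases, the enzymes that make cAMP. cAMP frees the catalytic subunits of protein kinase A (PKA), which phosphorylate the transcription factor CREB at cAMP response elements (CREs), and coactivators of the CRTC family then help switch on nearby genes. Several of the targets feed back on the pathway: phosphodiesterases break cAMP down, Crem encodes repressors that occupy the same elements, and Sik1 is a kinase that keeps CRTC proteins out of the nucleus. In muscle, Nr4a receptors and Ppargc1a are known for regulating energy metabolism, and Sik1 is known to be induced by CREB in differentiating myocytes. cAMP itself was not measured, and genes are called targets here only from this background.

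The promoter sequences of the Nr4a genes are shown first, because each holds a dense set of short CRE motifs, the element through which CREB acts. RefSeq promoter windows of 300 bases (250 before a transcript start and 50 after it, build GRCm38.p6) matched 8 of the 10 genes by symbol, all but Crem and Sik1, with 13 windows in all. The 5-base CRE core was searched as TGACG and, for the other strand, CGTCA; the palindromic 8-base site TGACGTCA holds both and would count as 2. At least 1 core was found in 7 windows of 6 genes, against 20.8% of all 32851 windows in the table. No window of Pde4b or Pde4d covers the starts that held most of the gene's estimated counts, which are given with each gene. The windows do not describe those starts. Nr4a1, Nr4a2 and Nr4a3 had 4 cores each, a number reached by 0.231% of all windows. The 8-base site was in none of the 13 windows and in 1.79% of all windows. A match is a description of these letters only. The stretches below hold no base of an annotated exon; those of Nr4a1 and Pde10a lie inside the genes, downstream of other annotated starts. They run 5′ to 3′ on the gene's strand and carry the cores in capitals. The Nr4a1 stretch is chr15:101266596-101266845 (plus strand), just before the start to which 88.4% of the gene's estimated counts were assigned, with cores beginning at -233, -213, -69 and -40 (the base before the start is -1). The Nr4a2 stretch is chr2:57124004-57124253 (minus strand), before the start that held 63.6% of the counts, with cores at -200, -144, -123 and -111. The Nr4a3 stretch is chr4:48045055-48045152 (plus strand), with cores at -231, -213 and -205 from the RefSeq start at 48045305. The fourth core, at -147, lies within an annotated exon and is not printed. For Nr4a3 in iMPCs and sorted myoblasts, and for Nr4a1 in sorted myoblasts, most counts were assigned to another start, as given at the end. The Pde10a stretch, chr17:8801495-8801692 (plus strand), is printed for contrast: this gene had the second largest F/R/C difference of the 10 on day 2, and its window held no core.
Nr4a1: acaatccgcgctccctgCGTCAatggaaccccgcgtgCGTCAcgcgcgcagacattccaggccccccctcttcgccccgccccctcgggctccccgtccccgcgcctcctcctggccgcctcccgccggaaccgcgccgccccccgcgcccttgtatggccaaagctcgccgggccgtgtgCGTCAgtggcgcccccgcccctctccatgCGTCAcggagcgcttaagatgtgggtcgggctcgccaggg
Nr4a2: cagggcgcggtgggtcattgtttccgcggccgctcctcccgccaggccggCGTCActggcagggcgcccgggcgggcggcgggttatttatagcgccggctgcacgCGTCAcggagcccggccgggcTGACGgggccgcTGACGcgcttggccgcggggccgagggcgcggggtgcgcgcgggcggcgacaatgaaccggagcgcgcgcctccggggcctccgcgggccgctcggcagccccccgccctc
Nr4a3: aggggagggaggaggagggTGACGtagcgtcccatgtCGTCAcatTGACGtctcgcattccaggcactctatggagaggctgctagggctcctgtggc
Pde10a: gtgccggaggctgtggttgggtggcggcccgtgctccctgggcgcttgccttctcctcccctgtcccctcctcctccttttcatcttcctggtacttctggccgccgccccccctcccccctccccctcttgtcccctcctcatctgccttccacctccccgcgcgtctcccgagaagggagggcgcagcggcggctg

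The shallowest library held 15.6 M assigned reads, the median one 22.1 M and the deepest 36.3 M. Levels are given as CPM (counts scaled to the TMM-adjusted size of the library), with the 3 libraries of a group in the order of their replicate numbers 1, 2 and 3. Differences are log2 fold changes from edgeR's quasi-likelihood test with Benjamini-Hochberg adjustment over all 17325 genes, and a gene is called higher or lower where the adjusted p is under 0.05 and the log2 fold change is at least 1 in size. Myod1, the induced gene, averaged 3.55 ± 4.58 CPM (SD, n = 3) in MEFs, 2630 ± 837 with MyoD alone on day 2 and 959 ± 344 with F/R/C on day 2; transgene and endogenous gene cannot be told apart in these counts. The summed level of 12 fibroblast genes such as Col1a1 and Thy1 was lower with F/R/C on every day: it ran from 5163 to 7369 CPM against 13080 to 18011 on day 2, and from 1448 to 5471 against 14005 to 30529 on day 10. Gene by gene the fibroblast list did not move one way. On day 2, 2 of 12 were called higher and none lower (median log2 fold change 1.08), beside 2.13% and 2.80% of all genes. On day 10, 1 was higher and 3 lower (median -0.33), beside 9.91% and 13.4%. The sum of 12 proliferation genes was higher with F/R/C on day 10 (585 to 1290 CPM against 60.3 to 521), while that of 12 differentiation genes overlapped (13694 to 23137 against 10249 to 36213). The sum of 11 progenitor genes ran from 1644 to 1838 CPM with F/R/C and from 1010 to 1491 with MyoD alone on day 10. Gene by gene, 4 of these 11 were called higher and 2 lower on day 10 (median log2 fold change 0.99), beside 9.91% and 13.4% of all genes. Sums over 5 endothelial, 5 immune, 5 adipocyte, 5 glial or 5 epithelial markers reached at most 20.9 CPM in any library; Krt5, Krt14 and Sox10 were at 0 in both arms on day 2 and Ucp1 on day 10. On day 10 the arms did not overlap in 4 of these 5 small sums: the glial sum (9.66 to 18.2 CPM with F/R/C, 1.43 to 1.93 with MyoD alone) and the epithelial sum (1.70 to 3.81 against 0.185 to 0.396) were higher with F/R/C, and the endothelial sum (1.67 to 2.05 against 6.14 to 9.30) and the immune sum (4.56 to 5.11 against 5.41 to 7.83) were lower. On day 2 the glial sum did not overlap either (1.97 to 2.67 against 1.61 to 1.72). The part of any of these marker differences in the results was not tested, and in bulk samples fewer cells of a type and less RNA per cell cannot be told apart.

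On day 2 the fitted F/R/C difference was above 0 for all 10 genes, and on day 10 for 5 of them. The share of all genes above 0 was not counted. The medians over all genes, given below, were just under 0 on both days, so the day 10 count is not set apart from all genes. Most of the day 2 values were not called. With single libraries left out, the day 2 value of Nr4a2 ran from -0.0495 to 0.55. On day 2, 3 of the 10 genes were called higher with F/R/C (Pde4b, Pde10a and Crem) and none lower, beside 4.93% of all genes called in either direction (2.13% higher and 2.80% lower). On day 10, Pde4b and Sik1 were called higher and Nr4a1 and Nr4a2 lower, beside 23.3% of all genes (9.91% higher and 13.4% lower). Days 4 and 6 had 2 higher genes each, beside 13.2% and 15.4% of all genes (6.58% and 8.23% higher, 6.66% and 7.14% lower). Day 8 had 2 higher and 1 lower, beside 18.7% of all genes (9.20% higher and 9.46% lower). In the average over the 5 days, Pde4b and Ppargc1a were called higher and Nr4a2 lower, beside 22.1% of all genes (11.6% higher and 10.5% lower). The median log2 fold change of the 10 genes was 0.78 on day 2 and -0.0032 on day 10, against -0.0015 and -0.067 over all genes tested. The change of the difference from day 2 to day 10 was itself tested as an interaction: 2 genes, Crem and Pde10a, were called lower, beside 6.01% of all genes (2.24% higher and 3.77% lower). Along a straight line fitted through the 5 daily differences (the trend, given as its change from day 2 to day 10), Nr4a1, Nr4a2, Crem and Pde10a were called lower, beside 11.2% of all genes (4.27% higher and 6.98% lower), and none higher. The following courses can be read from the plot of daily differences: both Nr4a1 and Nr4a2 went from near 0 to well below it, Crem and Pde10a started above 0 and ended just below, Pde4b stayed above 0 throughout, and Sik1 went from near 0 to above it.

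**Figure D1:**
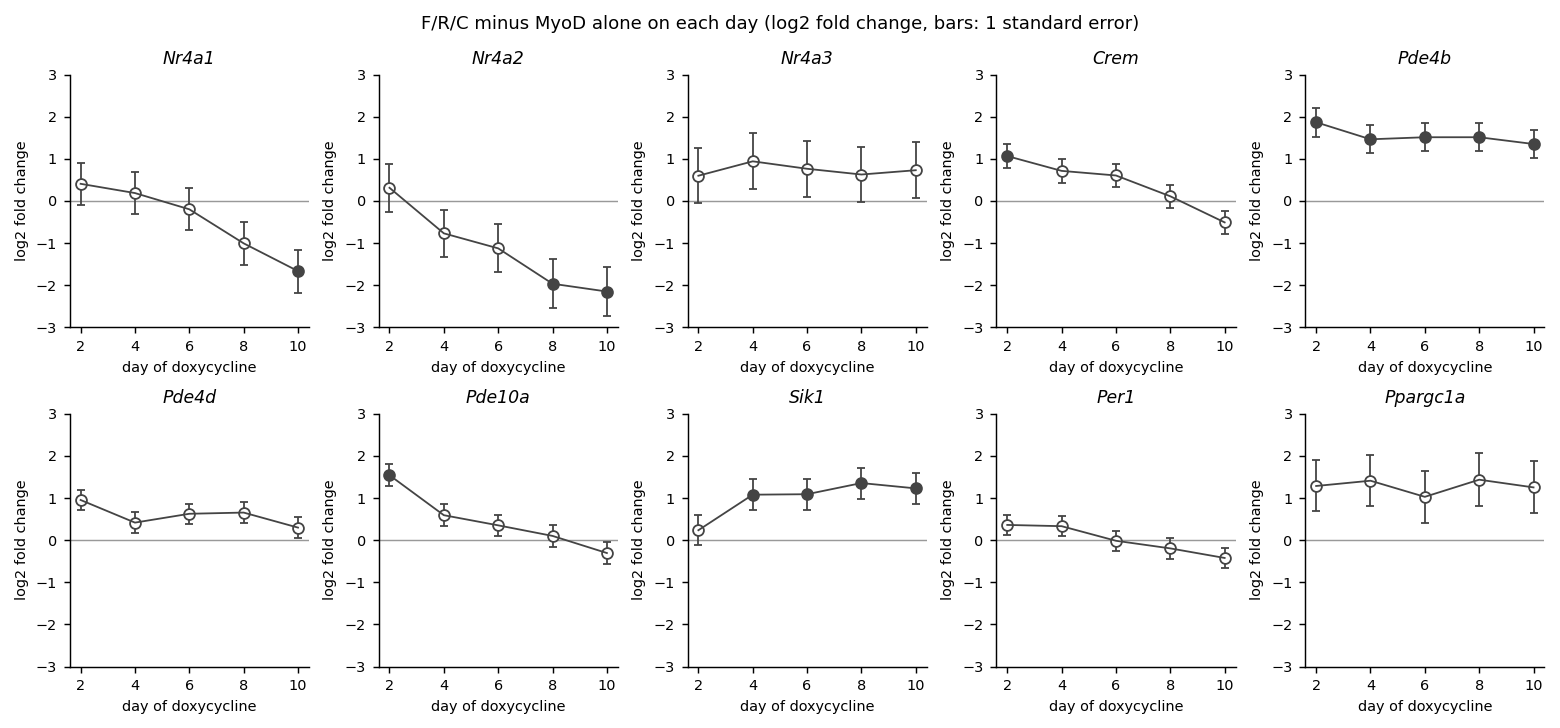
Difference between F/R/C and MyoD alone for each gene (y axis, log2 fold change; x axis, day of doxycycline; bars, 1 standard error; n = 3 libraries a group). Filled circles are called (adjusted p under 0.05 and at least 1 in size): Pde4b on all 5 days, Sik1 from day 4, Crem and Pde10a on day 2 only, Nr4a2 on days 8 and 10, and Nr4a1 on day 10.

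Separation of the libraries was counted as well. The 3 F/R/C libraries were all above the 3 libraries of MyoD alone for 5 genes on day 2, 7 on day 4, 6 on day 6, 3 on day 8 and 3 on day 10, beside 18.0%, 22.9%, 23.1%, 21.8% and 22.0% of all genes tested. They were all below for none of the 10 on days 2 and 4, for 1 on day 6, 1 on day 8 and 2 on day 10, beside 19.8%, 23.4%, 25.7%, 25.0% and 25.9% of all genes. The day 10 shares, 3 of 10 above and 2 of 10 below, are near those backgrounds. The genes all above on day 2 were Crem, Pde4b, Pde4d, Pde10a and Ppargc1a, and those all below on day 10 were Nr4a2 and Per1. Same-numbered libraries of the arms deviated together on days 2, 4 and 6, so the pairs were counted too. On day 2 the F/R/C library was the higher in 3 of 3 pairs for 9 of the 10 genes, beside 31.5% of all genes, and in 2 of 3 for Nr4a1; Nr4a2, Nr4a3, Sik1 and Per1 are the 4 of these 9 whose ranges overlapped. It was the higher in 3 of 3 pairs for 8 genes on day 4 and 6 on day 6, beside 33.0% and 31.4% of all genes, and the lower in 3 of 3 for Nr4a2 on both days, beside 34.8% and 36.3%.

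**Figure D2:**
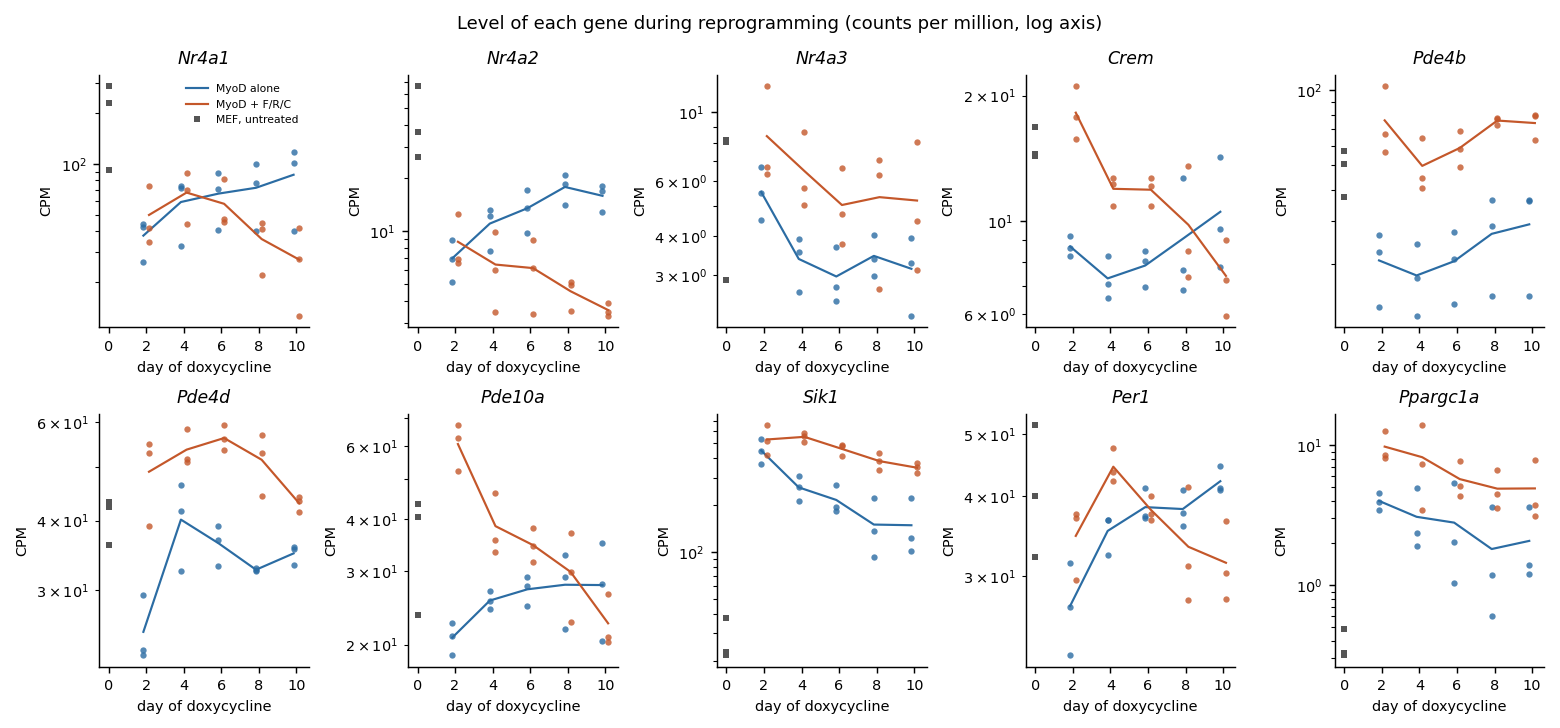
Level of each gene in every library (y axis, CPM on a log axis; x axis, day of doxycycline). Points are libraries, lines join group means (blue, MyoD alone; orange, MyoD with F/R/C), and squares at day 0 are untreated MEFs; each panel has its own y range. Nr4a1 and Nr4a2 start high in MEFs, and their lines cross between days 4 and 6 for Nr4a1 and between days 2 and 4 for Nr4a2. The Pde4b lines are apart on all 5 days and the Sik1 lines from day 4.

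Nr4a1 (chr15:101254269-101274795, plus strand) encodes Nur77, an orphan nuclear receptor and a classic immediate early gene. It was highest in MEFs, at 92.2, 288.5 and 230.3 CPM. On day 2 the libraries of MyoD alone had 44.0, 26.3 and 42.4 CPM, and those with F/R/C 73.7, 34.2 and 41.5. By day 10 they had 100.7, 40.3 and 117.4 with MyoD alone and 27.2, 12.6 and 41.5 with F/R/C. The arms overlapped on every day, on day 10 because replicate 2 of MyoD alone lay below replicate 3 of F/R/C, and replicate 2 was the lowest of its group on each day in both arms. The difference moved from 0.41 ± 0.50 (log2 fold change ± SE) on day 2 through 0.19, -0.20 and -1.01 to -1.67 ± 0.51 on day 10 (adjusted p 0.00958), a 3.18-fold lower level. The day 10 call was lost without replicate 2 of F/R/C day 10 (-1.33, adjusted p 0.0702) and when both day 10 groups were fitted by themselves (-1.63, adjusted p 0.0602), and the change from day 2 to day 10 was -2.07 ± 0.71 with an adjusted p of 0.0616. That change was called without replicate 2 of MyoD day 10 (-2.40, adjusted p 0.0347) or without replicate 3 of F/R/C day 10 (-2.52, adjusted p 0.033), with the replicate block (-2.08, adjusted p 0.0366) and with DESeq2 (-2.03, adjusted p 0.0363). The fitted trend was -2.14 ± 0.64 (adjusted p 0.0193), and it missed the threshold without replicate 2 of MyoD day 2 (-1.93, adjusted p 0.056), replicate 1 of F/R/C day 2 (-1.82, adjusted p 0.0623) or replicate 2 of F/R/C day 10 (-1.86, adjusted p 0.0579).

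Nr4a2 (chr2:57106830-57124003, minus strand) encodes Nurr1, a second receptor of the same family. Some of its reads were divided with other genes, since the summed estimate was a whole number, to within 0.01, in only 7 of 45 libraries. MEFs had 26.2, 66.7 and 36.8 CPM. On day 2 the libraries had 8.95, 5.16 and 6.92 CPM with MyoD alone and 12.6, 6.61 and 6.95 with F/R/C, and their ranges overlapped. With MyoD alone the libraries stood at 20.8, 14.2 and 18.5 CPM on day 8 and 16.9, 12.8 and 18.0 on day 10. With F/R/C they stood at 5.16, 4.98 and 3.54 on day 8 and 3.90, 3.31 and 3.5 on day 10, so from day 6 every F/R/C library lay below every library of MyoD alone. The difference was 0.31 ± 0.56 on day 2, -0.77 on day 4, -1.13 on day 6, -1.97 ± 0.58 on day 8 (adjusted p 0.00963) and -2.15 ± 0.59 on day 10 (adjusted p 0.00397), and its average over the 5 days was -1.14 ± 0.26 (adjusted p 0.000252). The change from day 2 to day 10 was -2.46 ± 0.81 and missed the threshold narrowly (adjusted p 0.051); it passed with the replicate number as a block (-2.46, adjusted p 0.0429), with DESeq2 (-2.41, adjusted p 0.0259) and when the fit held those groups alone (-2.44, adjusted p 0.00971). The trend was -2.45 ± 0.72 (adjusted p 0.0181), and it missed the threshold without replicate 2 of MyoD day 2 (-2.24, adjusted p 0.0521) or replicate 1 of F/R/C day 2 (-2.16, adjusted p 0.053).

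Nr4a3 (chr4:48045153-48086447, plus strand), which encodes NOR1, the remaining receptor of the family, had a fitted difference above 0 on every day. It had 5.50, 6.65 and 4.5 CPM with MyoD alone on day 2 and 12.2, 6.66 and 6.35 with F/R/C. On day 10 it had 2.22, 3.27 and 3.94 with MyoD alone and 4.49, 3.12 and 8.02 with F/R/C. The F/R/C libraries lay wholly above on days 4 and 6 and overlapped on the other days. The difference was between 0.60 and 0.94 on all 5 days and called on none, with adjusted p from 0.324 to 0.645, and its average was 0.73 ± 0.29 (adjusted p 0.0316), under the fold threshold. Between day 2 and day 10 the difference moved by 0.13 ± 0.92, an error too wide to place it. Whether Nr4a3 differs from Nr4a1 and Nr4a2 in its course was not tested directly.

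Crem (chr18:3266048-3337748, minus strand) encodes activators and, from an internal promoter, the cAMP-inducible repressor ICER, which shuts down CREB targets. It had 8.61, 9.23 and 8.27 CPM with MyoD alone on day 2 and 21.1, 15.8 and 17.8 with F/R/C, with no overlap. On day 4 it had 7.07, 6.55 and 8.27 against 12.7, 12.3 and 10.9, and the arms were apart on day 6 as well. On day 10 the order had turned, with 9.58, 7.78 and 14.3 CPM for MyoD alone and 9.02, 5.94 and 7.24 for F/R/C, but the ranges overlapped. The difference went from 1.06 ± 0.28 on day 2 (2.09-fold, adjusted p 0.01435) through 0.71, 0.60 and 0.11 to -0.51 ± 0.28 on day 10 (adjusted p 0.145). As an interaction, the change from day 2 to day 10 was -1.57 ± 0.40 (adjusted p 0.0157) and the trend -1.5 ± 0.35 (adjusted p 0.00445). The day 2 call was lost without replicate 2 of MyoD day 2 (1.11, adjusted p 0.0529), replicate 3 of MyoD day 2 (1.04, adjusted p 0.0594) or replicate 1 of F/R/C day 2 (0.95, adjusted p 0.0636). The interaction was lost without replicate 3 of MyoD day 2 (-1.49, adjusted p 0.0556), replicate 1 of F/R/C day 2 (-1.46, adjusted p 0.0503), replicate 3 of MyoD day 10 (-1.29, adjusted p 0.0553) or replicate 2 of F/R/C day 10 (-1.44, adjusted p 0.0595). The direction was the same in each of these fits.

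The 39 annotated Crem transcripts fall into clusters of start sites, and the authors' estimated counts were split over 5 clusters that each held at least 5% of the gene's counts. The most upstream cluster, where full-length transcripts begin, averaged 2.77 CPM (2.38 to 3.40) with MyoD alone and 3.74 (2.71 to 4.62) with F/R/C on day 2, and 2.69 (2.17 to 3.44) and 3.60 (1.62 to 4.75) on day 10. Its ranges overlapped on both days. The cluster nearest the 3′ end held 3.31 to 3.94 CPM with MyoD alone and 6.11 to 8.37 with F/R/C on day 2, and 1.76 to 4.32 against 0.223 to 1.5 on day 10. The neighbouring internal cluster held 0.748 to 1.56 against 3.59 to 4.92 CPM on day 2 and 0.983 to 5.10 against 0.374 to 2.32 on day 10. In these estimates both of these clusters were wholly higher with F/R/C on day 2, and on day 10 the one nearest the 3′ end was wholly lower while the other overlapped. Gm6225, a transcript annotated on the opposite strand within Crem, averaged 1.65 CPM over the 45 libraries, and whether the counting used strand is not given in the sources used here. The split among transcripts that share most of their sequence is an estimate from short reads and was not tested.

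**Figure D3:**
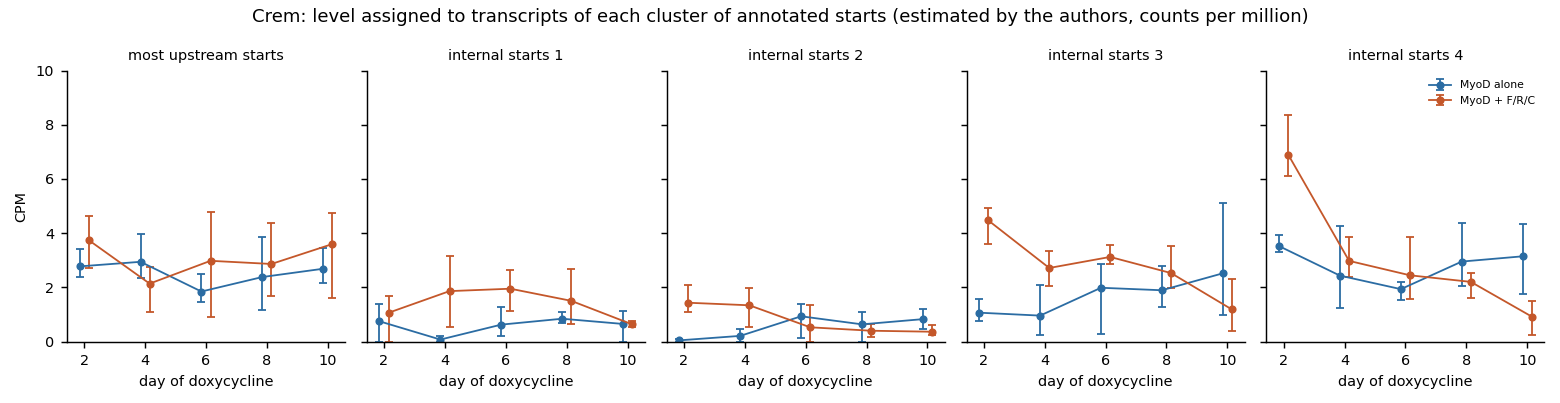
Crem level assigned to each of 5 clusters of annotated transcript starts (y axis, CPM; x axis, day of doxycycline; points, mean of 3 libraries; bars, lowest to highest library; blue, MyoD alone; orange, MyoD with F/R/C). Panels run from the most upstream starts to those nearest the 3′ end: in the last panel the arms are separate on day 2 (6.11 to 8.37 CPM with F/R/C, 3.31 to 3.94 without), and in the first they overlap.

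Pde4b (chr4:102087543-102607259, plus strand), a phosphodiesterase specific for cAMP, was higher with F/R/C on every day. It had 22.4, 13.5 and 26.4 CPM with MyoD alone on day 2 and 66.6, 56.7 and 104.2 with F/R/C. On day 10 it had 35.8, 14.9 and 36.3 CPM with MyoD alone and 78.7, 63.3 and 79.9 with F/R/C. No F/R/C library overlapped with MyoD alone on any of the 5 days, and replicate 2 of MyoD alone was the lowest of its group each time. The difference was 1.87 ± 0.34 on day 2 (3.65-fold, adjusted p 0.000567), 1.46 on day 4, 1.51 on days 6 and 8, and 1.35 ± 0.33 on day 10 (2.55-fold, adjusted p 0.00174), and its average was 1.54 ± 0.15 (adjusted p 2.29e-10). From day 2 to day 10 the difference moved by -0.52 ± 0.46 (adjusted p 0.513). Each call on a single day held in every alternative fit and with each library left out. By start site, 70.3% of the counts over all libraries belonged to 3 transcripts that start at 102254742 to 102255230, and this share was 73.2% with MyoD alone and 68.3% with F/R/C on day 2.

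Pde4d (chr13:108449948-109953461, plus strand), a close relative of Pde4b, showed a smaller difference. Its libraries had 23.5, 22.9 and 29.4 CPM with MyoD alone and 54.8, 39.1 and 52.9 with F/R/C on day 2, and 35.6, 33.3 and 35.9 against 44.1, 43.3 and 41.4 on day 10. The F/R/C libraries were wholly above those of MyoD alone on all 5 days. The difference was 0.95 ± 0.24 on day 2 (adjusted p 0.0114), 0.66 ± 0.24 on day 8 (adjusted p 0.0352) and 0.30 ± 0.24 on day 10 (adjusted p 0.334), and the average was 0.59 ± 0.11 (1.51-fold, adjusted p 1.82e-05). From day 2 to day 10 the difference moved by -0.66 ± 0.34 (adjusted p 0.2185), so a shrinking difference was not shown. All of these were under the fold threshold; on day 2 the value passed it without replicate 3 of MyoD (1.09, adjusted p 0.0177), without replicate 2 of F/R/C (1.11, adjusted p 0.0105) and with library totals in place of TMM (1.09, adjusted p 0.00498). The 2 transcripts that start at 109903102 to 109903106 held 69.0% of the gene's estimated counts.

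Pde10a (chr17:8525372-8986648, plus strand) hydrolyses both cAMP and cGMP and is best known in the striatum of the brain. On day 2 it had 22.5, 18.9 and 20.99 CPM with MyoD alone and 67.2, 52.1 and 62.5 with F/R/C, the widest gap of its course. On day 4 it had 26.8, 24.3 and 25.4 against 46.3, 33.4 and 35.7, and on day 6 the arms were still apart, at 24.7 to 29.1 against 31.5 to 38.0. On day 10 it had 35.0, 20.4 and 28.0 with MyoD alone and 26.4, 20.8 and 20.2 with F/R/C, and the arms overlapped. The difference fell by 1.85 ± 0.37 from day 2 to day 10 on the log2 scale (adjusted p 0.00394): it was 1.54 ± 0.26 on day 2 (2.91-fold, adjusted p 0.000268), 0.59, 0.35 and 0.10 on days 4 to 8, and -0.31 ± 0.26 on day 10 (adjusted p 0.358). The trend was -1.68 ± 0.33 (adjusted p 0.00106). These calls held in every alternative and with each library left out. Transcripts starting at 8801693 to 8801779 held 63.5% of the counts with MyoD alone and 63.0% with F/R/C on day 2; their level was 11.7 to 14.3 CPM against 34.6 to 42.1.

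Sik1 (chr17:31844250-31855804, minus strand), the salt-inducible kinase that restrains CRTC coactivators, was far higher in both arms than in MEFs. MEFs had 37.4, 21.7 and 22.6 CPM. On day 2 it had 369.5, 532 and 446 CPM with MyoD alone and 418, 653 and 517 with F/R/C, so it was high in both arms. Each F/R/C library lay above the library of MyoD alone with its number, while the ranges of the arms overlapped. With the numbers as a block the difference was 0.23 (adjusted p 0.751). That block gives each number the same effect in all 15 groups, so it is not a paired test of the day 2 arms. On day 10 it had 122.5, 222 and 101 with MyoD alone against 320.7, 351 and 373 with F/R/C, and the arms were apart from day 4 on. The difference was 0.24 ± 0.36 on day 2 (adjusted p 0.761), 1.08 ± 0.37 on day 4 (adjusted p 0.03), 1.09 ± 0.37 on day 6 (adjusted p 0.0256), 1.36 ± 0.37 on day 8 (adjusted p 0.00514) and 1.23 ± 0.37 on day 10 (2.34-fold, adjusted p 0.00788). Between day 2 and day 10 the difference moved by 0.99 ± 0.51 (adjusted p 0.215), so a growing difference was not shown. The average was 0.999 ± 0.163 (adjusted p 3.38e-06), which falls just short of the fold threshold and passed it under most other settings, such as 1.05 with DESeq2 (adjusted p 7.89e-10). The trend was 0.91 ± 0.46 (adjusted p 0.165), and it was called without replicate 2 of MyoD day 10 (1.28, adjusted p 0.0467). The day 4 call was lost without replicate 1 or 3 of MyoD (1.12 and 0.98, adjusted p 0.0574 and 0.0898) or replicate 2 or 3 of F/R/C (1.06 and 1.09, adjusted p 0.0619 and 0.0545), the day 6 call without replicate 1 or 3 of MyoD (1.10 and 1.04, adjusted p 0.0602 and 0.0695), and the day 10 call without replicate 3 of MyoD (1.02, adjusted p 0.0523). Some of its reads were divided with other genes, since its sum was whole, to within 0.01, in only 19 of 45 libraries.

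Per1 (chr11:69095217-69109960, plus strand), a clock repressor that cAMP can induce acutely, had no called difference on any day. It ranged from 22.6 to 31.4 CPM with MyoD alone and from 29.5 to 37.5 with F/R/C on day 2, and from 40.8 to 44.5 against 27.6 to 36.6 on day 10. The F/R/C libraries were wholly above on day 4 and wholly below on day 10, and overlapped on the other days. No daily difference passed the test, and the values went from 0.36 ± 0.24 on day 2 to -0.42 ± 0.24 on day 10 (adjusted p 0.41 and 0.166). The change from day 2 to day 10 was -0.78 ± 0.34 (adjusted p 0.142), and the trend was -0.84 ± 0.31 (adjusted p 0.0539). The hour at which cultures were harvested is not given in the sources used here.

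Ppargc1a (chr5:51454250-51567726, minus strand) encodes the coactivator PGC-1α, which drives mitochondrial and oxidative genes in muscle. MEFs had 0.48, 0.33 and 0.32 CPM, from 23 reads in all. On day 2 it had 4.57, 3.96 and 3.46 CPM with MyoD alone and 8.13, 8.53 and 12.6 with F/R/C, with no overlap. On day 10 it had 1.2, 3.62 and 1.39 with MyoD alone and 3.1, 3.75 and 7.87 with F/R/C, and replicate 2 of MyoD alone overlapped with F/R/C on days 4 to 10. The daily difference was between 1.03 and 1.44, and no single day passed the test (adjusted p from 0.0734 to 0.216). The average over the 5 days was 1.28 ± 0.27 (2.43-fold, adjusted p 0.000148), and the change from day 2 to day 10 was -0.034 ± 0.882. The daily difference passed the test without replicate 1 of F/R/C on day 4 (1.82, adjusted p 0.0364) and without replicate 2 of MyoD on day 6 (1.95, adjusted p 0.0423), day 8 (2.47, adjusted p 0.00979) and day 10 (1.94, adjusted p 0.0297). On day 8 it also passed with library totals (1.63, adjusted p 0.0405), the replicate block (1.55, adjusted p 0.0452) and DESeq2 (1.51, adjusted p 0.0395), and on day 2 when both groups were fitted by themselves (1.31, adjusted p 0.0112). Some reads were divided with other genes, since the sum was whole, to within 0.01, in only 4 of 45 libraries.

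Against untreated MEFs the 10 genes split into 2 genes that rose, Sik1 and Ppargc1a, and others that fell or did not pass. With MyoD alone on day 2, Sik1 rose 16.5-fold (4.04 ± 0.41, adjusted p 3.68e-09) and Ppargc1a 10.4-fold (3.38 ± 0.71, adjusted p 0.000404), while Nr4a1 fell by 2.44 (adjusted p 0.000484), Nr4a2 fell by 2.62 (adjusted p 0.000803) and Pde4b fell by 1.22 (adjusted p 0.00482) on the log2 scale; these are 5 of 10 genes beside 22.4% of all genes (12.3% higher and 10.1% lower). With F/R/C on day 2, Sik1 rose by 4.28 and Ppargc1a by 4.67, and Nr4a1 and Nr4a2 fell by 2.03 and 2.31 (4 of 10 genes, beside 20.4% of all genes, 11.5% higher and 8.93% lower). For Pde4b with F/R/C the difference from MEFs was 0.65 ± 0.33 (adjusted p 0.127). On day 10, MyoD alone had only Sik1 (2.45) and Ppargc1a (2.43) above MEFs, beside 18.9% of all genes (14.3% higher and 4.64% lower), and Nr4a1 (-1.24, adjusted p 0.0604) and Nr4a2 (-1.44, adjusted p 0.0516) did not pass, although DESeq2 called both lower (-1.27 and -1.47, adjusted p 0.0383 and 0.0304) and the replicate block called Nr4a1 (-1.40, adjusted p 0.0231). Nr4a1 and Nr4a2 were each called lower in 5 of 12 other fits, counting those that left out 1 library. On day 10, F/R/C had Sik1 (3.68) and Ppargc1a (3.68) higher and Nr4a1 (-2.91), Nr4a2 (-3.60) and Crem (-1.04, adjusted p 0.00244) lower, which are 5 of 10 genes beside 34.8% of all genes (19.0% higher and 15.8% lower). Both arms are set against the same MEF libraries, so the values are given side by side only. In MEFs, replicate 1 had the lowest Nr4a1 level; without it, Nr4a1 and Nr4a2 were called lower in MyoD day 10 (-1.59 and -1.70, adjusted p 0.0267 and 0.0403), and without replicate 3 of MyoD day 10 Nr4a1 was too (-1.53, adjusted p 0.0435), whereas Ppargc1a was not called without replicate 2 of MyoD day 10 (1.74, adjusted p 0.111). The Crem value for F/R/C day 10 lies at the fold threshold and was under it in 5 of the 6 other fits that left out no single library: with DESeq2 (-0.99, adjusted p 0.00126), RLE factors (-0.99, adjusted p 0.00362), library totals (-0.96, adjusted p 0.00612), only the groups compared (-0.98, adjusted p 0.0138) and no filter (-0.94, adjusted p 0.0108), though not with the replicate block. It was under the threshold as well without replicate 2 of MEFs (-0.94, adjusted p 0.0153) or replicate 2 of F/R/C (-0.90, adjusted p 0.0205), and Pde10a passed the fold threshold in MyoD day 2 without replicate 1 of MEFs (-1.01, adjusted p 0.00475).

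**Figure D4:**
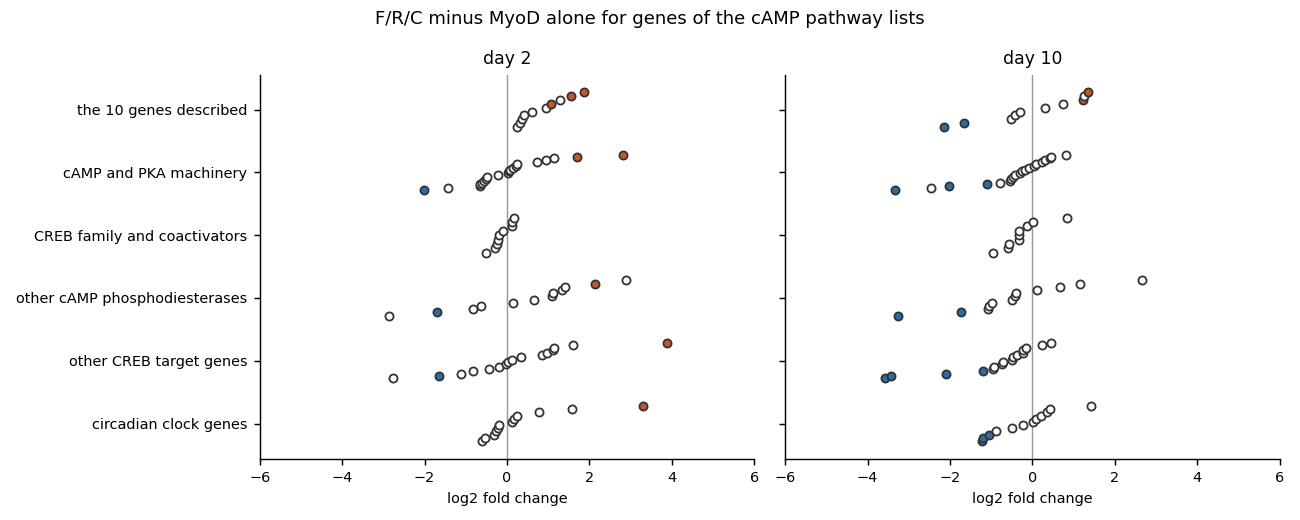
F/R/C minus MyoD alone on day 2 (left) and day 10 (right) for the 10 genes and for each tested gene of 5 related lists (x axis, log2 fold change; 1 circle a gene; orange, called higher; blue, called lower; white, not called). On day 10 the called genes of the 5 related lists all lie below 0, among them Adcy7 at -3.33 and Pde1b at -3.26. Of all genes tested, 13.4% were called lower and 9.91% higher on day 10.

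The rest of the pathway was read from lists chosen by function, of which 69 genes were tested. Earlier results of these data were known at that choice too, so the list counts are descriptions only. Of 20 tested genes of the cAMP and PKA machinery, 2 were higher with F/R/C on day 2, the cyclase Adcy5 (2.81 ± 0.76, adjusted p 0.0176) and the PKA regulatory subunit Prkar2b (1.70 ± 0.39, adjusted p 0.00541), and 1 was lower, the cyclase Adcy7 (-2.02 ± 0.38, adjusted p 0.000787). Of all genes, 2.13% were higher and 2.80% lower on day 2. On day 10 none of the 20 was higher and 3 were lower: Adcy7 (-3.33 ± 0.40, adjusted p 4.40e-07), Adcy3 (-1.11 ± 0.34, adjusted p 0.0103) and Rapgef3, which encodes the cAMP sensor Epac1 (-2.03 ± 0.64, adjusted p 0.0114). Of all genes, 9.91% were higher and 13.4% lower on day 10. The median of the list was 0.040 on day 2 and -0.28 on day 10, against -0.0015 and -0.067 over all genes. None of 9 CREB family members and coactivators was called on day 2, on day 10 or in the average, and Sik3 had a change from day 2 to day 10 of -1.09 ± 0.26 (adjusted p 0.0105). The medians of this list were -0.20 on day 2 and -0.33 on day 10.

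Of 12 other tested cAMP phosphodiesterases, Pde3b, known for insulin-regulated cAMP breakdown, was higher on day 2 (2.13 ± 0.60, adjusted p 0.0209), and the calmodulin-dependent Pde1b was lower (-1.69 ± 0.53, adjusted p 0.0438). On day 10, Pde1b (-3.26 ± 0.56, adjusted p 3.62e-05) and Pde4a (-1.73 ± 0.39, adjusted p 0.000744) were lower and none was higher. These counts stand beside 2.13% of all genes higher and 2.80% lower on day 2, and 9.91% higher and 13.4% lower on day 10. Averaged over the 5 days, Pde3a (1.69) and Pde3b (1.60) were higher and Pde1b (-2.08) and Pde4a (-1.11) lower, beside 11.6% of all genes higher and 10.5% lower. Pde4a and Pde4b, 2 genes of the same family, were thus called in opposite directions on day 10 and in the average. The median of the list was 0.87 on day 2 and -0.45 on day 10.

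Of 16 other tested CREB targets, the secreted neuropeptide precursor Vgf was higher on day 2 (3.89 ± 0.89, adjusted p 0.00482) and the immediate early gene Egr1 lower (-1.66 ± 0.34, adjusted p 0.00187). On day 10 none was higher, and 4 were lower: Junb (-1.21), the growth factor genes Areg (-2.10) and Bdnf (-3.44), and Pck1 (-3.58). The change from day 2 to day 10 was called for 4 of the 16, all lower: Vgf (-4.62 ± 1.16, adjusted p 0.0153), Areg (-3.70 ± 0.94, adjusted p 0.0162), Bdnf (-3.40 ± 1.02, adjusted p 0.0339) and the phosphatase Dusp1 (-1.81 ± 0.57, adjusted p 0.0421), beside 6.01% of all genes (2.24% higher and 3.77% lower). Of 12 clock genes, Hlf was higher on day 2 (3.30), and Arntl (-1.2), Nr1d1 (-1.05) and Nr1d2 (-1.22) were lower on day 10. Across the 5 lists, 5 genes were called higher and 3 lower at day 2, and 0 higher (1 at an unadjusted p under 0.05 by edgeR) and 12 lower on day 10, beside 2.13% and 2.80%, and 9.91% and 13.4%, of all genes. In the average over the 5 days the calls went both ways. The cAMP and PKA list had 2 higher and 3 lower, the other CREB targets 1 and 2, and the clock genes 2 and 0. Of all genes, 11.6% were higher and 10.5% lower in the average.

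**Figure D5:**
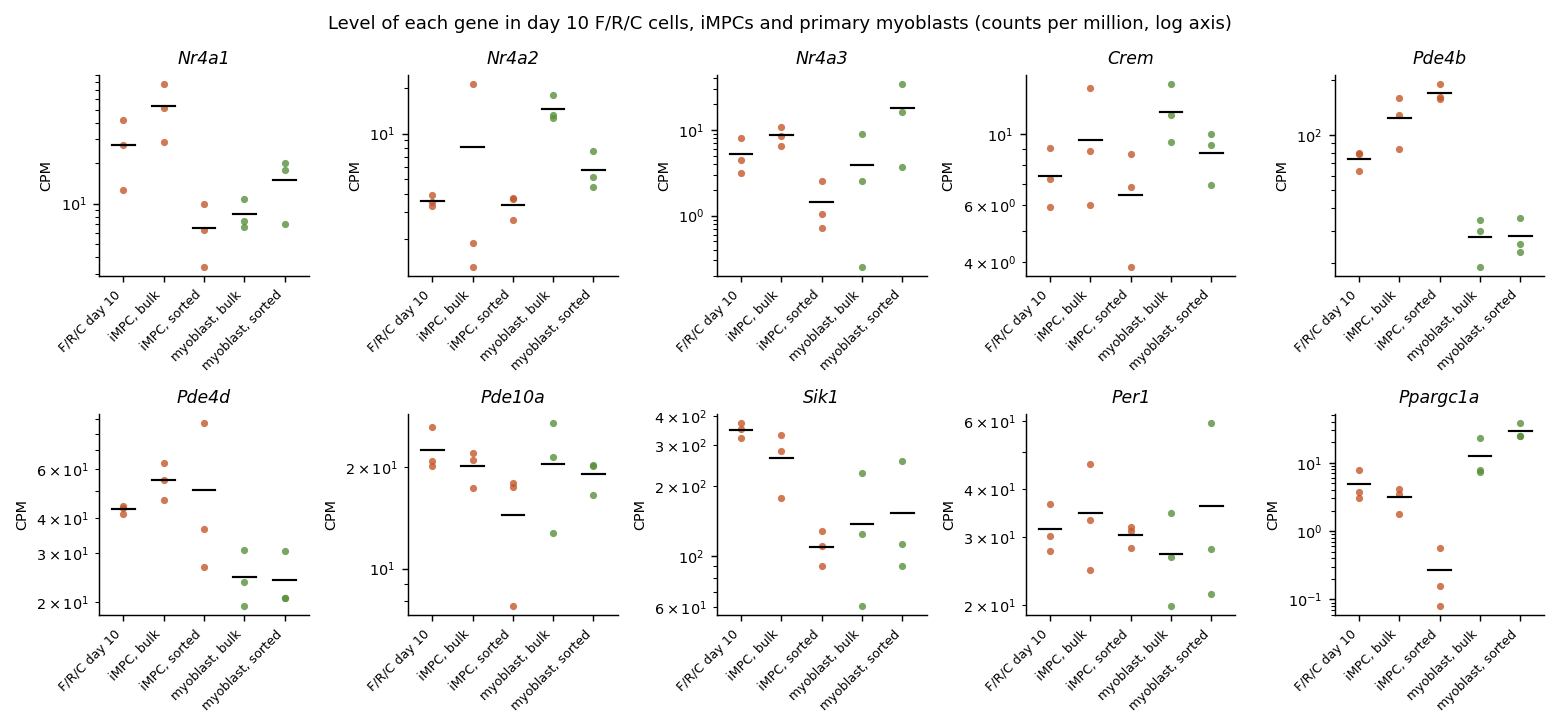
Level of each gene in F/R/C day 10 cells, bulk and sorted iMPCs (orange), and bulk and sorted primary myoblasts (green) (y axis, CPM on a log axis with its own range in each panel; points, 3 libraries a group; black lines, means). Pde4b is above all myoblast libraries in every iMPC library, and Ppargc1a reaches at most 0.56 CPM in the sorted iMPCs and at least 24.4 in the sorted myoblasts.

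For established iMPCs, none of the 10 genes was called in bulk iMPCs against F/R/C day 10 by edgeR (2 had an unadjusted p under 0.05), and DESeq2 called 0, beside 9.57% of all genes (3.33% higher and 6.24% lower). Pde4b stood at 128.5, 83.8 and 158 CPM in bulk iMPCs and 78.7, 63.3 and 79.9 on day 10 (0.74 ± 0.33, adjusted p 0.107). Nr4a2 was uneven in bulk iMPCs, at 1.31, 21.4 and 1.88 CPM, so that 1 library was far above both others. Its difference from F/R/C day 10 was 1.2 ± 0.57 (adjusted p 0.137), 1.70 without replicate 1 (adjusted p 0.0294), 1.67 without replicate 3 (adjusted p 0.0357) and -1.16 without replicate 2.

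Bulk iMPCs and bulk myoblasts differed in 4 of the 10 genes, beside 19.6% of all genes (10.9% higher and 8.70% lower). Nr4a1 had 51.8, 28.9 and 77.8 CPM in iMPCs and 6.69, 10.9 and 7.39 in myoblasts (2.66 ± 0.53, 6.33-fold higher, adjusted p 0.000286). Pde4b had 34.2, 29.9 and 19.2 CPM in myoblasts, all under the iMPC libraries (2.15 ± 0.34, adjusted p 1.66e-05), and Pde4d had 54.5, 46.4 and 62.7 in iMPCs against 23.7, 30.7 and 19.4 (1.15 ± 0.24, adjusted p 0.000526). Ppargc1a had 3.5, 1.78 and 4.17 CPM in iMPCs and 7.36, 22.7 and 7.83 in myoblasts (-2.0 ± 0.61, adjusted p 0.0115), a call that was lost without replicate 2 of the myoblasts (-1.27, adjusted p 0.116) or replicate 2 of the iMPCs (-1.72, adjusted p 0.0604), and when both groups were fitted by themselves (-2.05, adjusted p 0.0768). Without replicate 2 of the iMPCs, Nr4a2 was called lower in iMPCs (-3.19, adjusted p 7.60e-06, against -0.83 and adjusted p 0.264 with it) and Sik1 higher (1.16, adjusted p 0.0252). Sik1 was also called without replicate 1 of the myoblasts (1.5, adjusted p 0.00367) and Nr4a3 without replicate 2 of the myoblasts (2.66, adjusted p 0.0047). The bulk myoblast libraries were uneven in the summed differentiation genes, which ran from 1165 to 33394 CPM, against 22483 to 29268 in bulk iMPCs. Of the 12 fibroblast markers, 11 were called higher in bulk iMPCs and 1, Fn1, lower (median 5.29), while their summed levels overlapped (2883 to 4666 CPM in iMPCs, 1213 to 7628 in myoblasts). S100b and Foxd3 among 3 tested glial markers were higher too, as were the adipocyte markers Fabp4 and Cidea and the immune marker Csf1r, and endothelial Pecam1 was lower. The part of these markers in the values was not tested.

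Sorted Pax7-nGFP-positive iMPCs and myoblasts also differed in 4 genes, beside 30.0% of all genes (12.4% higher and 17.6% lower). Pde4b had 157.8, 190.1 and 161.1 CPM in sorted iMPCs, its highest group mean of the 15, and 35.3, 23.1 and 25.6 in sorted myoblasts (2.60 ± 0.35, 6.06-fold, adjusted p 3.91e-07). Ppargc1a had 0.56, 0.08 and 0.16 CPM in sorted iMPCs and 24.4, 38.1 and 24.5 in sorted myoblasts (-6.73 ± 0.79, adjusted p 5.25e-08); the iMPC values rest on 18 reads over 3 libraries, 2 of them in the lowest library, so the size of this fold is loosely set. Nr4a3 had 1.04, 2.50 and 0.72 CPM against 3.67, 16.2 and 34.6 (-3.66 ± 0.73, adjusted p 0.000111), a difference carried mostly by replicates 2 and 3 of the myoblasts. Pde4d had 87.4, 26.8 and 36.4 CPM against 20.8, 30.6 and 20.7 (1.06 ± 0.24, adjusted p 0.000551), and the ranges overlapped. Without replicate 1 of the sorted iMPCs the Pde4d value was 0.40 (adjusted p 0.08), and it was under the fold threshold without replicate 1 (0.97, adjusted p 0.0051) or replicate 3 (0.95, adjusted p 0.00642) of the sorted myoblasts; fitted by themselves the groups gave 1.08 (adjusted p 0.115). Nr4a1 was called lower without replicate 2 of the iMPCs (-1.61, adjusted p 0.0302) or replicate 1 of the myoblasts (-1.51, adjusted p 0.0242), and not with all libraries (-1.17, adjusted p 0.0615), where DESeq2 called it (-1.17, adjusted p 0.0441). The summed proliferation genes ran from 2296 to 2870 CPM in sorted iMPCs and 640 to 1249 in sorted myoblasts, and the differentiation genes from 1414 to 1949 against 4426 to 15563. The fibroblast markers Postn, Pdgfra, Pdgfrb and Dcn (4 of 12, with a list median of 2.21) and the glial marker Foxd3 were higher in sorted iMPCs, and endothelial Pecam1 and Kdr, immune Lyz2 and Cd14 and epithelial Cdh1 were lower. The part of any of these in the differences was not tested.

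The order of the 15 groups placed MEFs first for Nr4a1 (204 CPM) and Nr4a2 (43.2), F/R/C day 2 first for Crem (18.2) and Pde10a (60.6), F/R/C day 4 first for Sik1 (550) and Per1 (44.5), F/R/C day 6 for Pde4d (56.3), sorted iMPCs for Pde4b (170) and sorted myoblasts for Nr4a3 (18.2) and Ppargc1a (29.0). Sorted iMPCs came last for 6 genes: Nr4a1 (6.59), Nr4a2 (3.35), Nr4a3 (1.42), Crem (6.46), Pde10a (14.4) and Ppargc1a (0.27). How often sorted iMPCs came last over all genes was not counted, so this is not shown to be particular to these genes. The sorted libraries also carry another length setting, whose part in the order was not tested. Last places of the other 4 fell to MEFs for Sik1 (27.2), MyoD day 2 for Per1 (27.0), MyoD day 4 for Pde4b (18.1) and sorted myoblasts for Pde4d (24.0). Most groups next to each other in these orders overlapped: 14 of 14 neighbours for Nr4a1, Nr4a3 and Per1, 13 for Nr4a2, Crem, Pde4b, Pde10a and Sik1, and 12 for Pde4d and Ppargc1a. Highest and lowest means were 109-fold apart for Ppargc1a, 30.9-fold for Nr4a1, 20.2-fold for Sik1 and 1.65-fold for Per1. Per length, in the authors' TPM, the median over all 45 libraries was highest for Sik1 (95.0) and Nr4a1 (35.3) and lowest for Nr4a3 (1.47) and Ppargc1a (1.43).

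For the 3 genes with the largest average F/R/C difference in size, the genes with the most similar course were found by Pearson's r over the 15 group means of log2 CPM, among 17315 other genes. They were Fuom (0.96), Selenbp1 (0.95) and Lin7a (0.95) for Pde4b, Armcx6 (0.93), Tars (0.91) and Fhl4 (0.91) for Ppargc1a, and Heatr5a (0.96), Snx9 (0.96) and Epb41l1 (0.95) for Nr4a2. These values describe the group means and share their libraries.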

How the data were processed

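Poly-A RNA of 45 mouse libraries was sequenced as single reads from a stranded kit, per the labels' protocols. The submitters' processing notes name bcl2fastq 2.19, Trimmomatic 0.36, kallisto 0.44, edgeR 3.28 and GRCm38.p6. The authors deposited estimated counts and TPM (abundance scaled for transcript length) for 121843 transcripts per library in kallisto's layout, per the file headers. The deposited effective lengths fit 1 length setting for the 6 sorted libraries and another for the rest, so this setting and sorting cannot be told apart.

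Estimated counts were summed over each gene's transcripts, matched by identifier to GENCODE M21 (121104 matched, 739 did not), and rounded to whole numbers. Matched transcripts held 99.4% to 99.8% of each library's 15.6 to 36.3 M reads. edgeR 4.0.16 (R 4.3.3, limma 3.58.1) fitted all 15 groups with TMM scaling, filterByExpr and the quasi-likelihood test (17325 of 35675 genes, 30 residual degrees of freedom). CPM are TMM-scaled, and correlations used log2 CPM with a prior count of 2. Start sites within 500 bases were joined, and clusters with at least 5% of a gene's counts are given. The scripts were tested on simulated data. The members and lists were chosen with earlier results of these data known. All members are named. Of each pathway list the called genes with the largest change are named. Genes behind counts of 5 or fewer were added after their values were seen, except for some list counts in the average over days.

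The pairing of replicate numbers was checked by correlating deviations from group means between same-numbered libraries of the 2 arms. On days 2, 4 and 6 every correlation was over 0.1 (0.223 to 0.375), so the numbers were taken to pair these libraries. The labels do not state such a pairing, and libraries of unlike number were not correlated. On days 8 and 10 replicate 3 gave 0.079 and 0.062. Single correlations over 0.1 also occurred between other groups, such as 0.173 for number 1 of bulk iMPCs and bulk myoblasts. The main fit held no replicate term, so its tests on each day were unpaired. The alternatives were DESeq2 1.42.0 with its own size factors, RLE factors, library totals, no filter, the replicate block, only the groups compared, no minimum fold and each library left out. The replicate block gave each number the same effect in all 15 groups and does not pair the arms within a day.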

Additional observations from a re-analysis of the deposited data

Results flagged for a closer look

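For Crem and Pde10a the F/R/C difference on day 10 was below that on day 2 by an interaction test. The change was -1.57 for Crem (adjusted p 0.0157) and -1.85 for Pde10a (adjusted p 0.00394) on the log2 scale, by edgeR's quasi-likelihood test with 3 libraries in each of 4 groups.

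Along the fitted line over the 5 days the difference also changed, by -2.14 for Nr4a1 (adjusted p 0.0193), -2.45 for Nr4a2 (adjusted p 0.0181), -1.5 for Crem (adjusted p 0.00445) and -1.68 for Pde10a (adjusted p 0.00106). For Nr4a1 and Nr4a2 these calls depend on single libraries, as given with each gene.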

How the results depend on the processing

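Called counts among the 10 genes moved by over 1.5 times as follows. Without a minimum fold, 8 genes in place of 3 were called in the average and 9 in place of 5 in MyoD day 2 against MEFs. The change from day 2 to day 10 was called for 4 genes in place of 2 with the replicate block and with DESeq2. MyoD day 10 against MEFs gave 4 in place of 2 with library totals and with DESeq2. Leaving out 1 library gave 1 to 3 on day 4, 1 to 3 on day 6, 1 to 3 for the change from day 2 to day 10, 2 to 5 for the trend, 1 to 4 for MyoD day 10 against MEFs and 0 to 1 for iMPCs against F/R/C day 10. The 8-base motif was in the windows of 0 genes, the 5-base core in those of 6.

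Other settings turned the signs of the following values. Per1 on day 6 (-0.014) was 0.0542 with RLE factors, 0.13 with library totals, 0.0319 without the filter, 0.0383 with only the groups compared and 0.0542 with DESeq2. The change of Ppargc1a from day 2 to day 10 (-0.034) was 0.0274, 0.0177, 0.0629, 0.0175 and 0.0249 in that order, and 0.0622 with the replicate block. The trend of Nr4a3 (-0.02) was 0.0326, 0.0372, 0.0654, 0.0544 and 0.0335, and that of Ppargc1a (-0.02) was 0.0448, 0.0647, 0.0761, 0.0530 and 0.0425, and 0.1 with the block. Per1 in MyoD day 10 against MEFs was -0.0698 with library totals. Pde10a in bulk iMPCs against myoblasts was 0.0225 without the filter and 0.00221 with the block. The cause was not tested.

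Leaving out 1 library turned the sign of these values, whose ranges were as follows. On single days they were -0.0495 to 0.55 for Nr4a2 on day 2, -0.0925 to 0.43 for Nr4a1 on day 4, -0.52 to 0.13 for Nr4a1 and -0.00186 to 0.0839 for Per1 on day 6, and -0.20 to 0.43 for Crem and -0.0843 to 0.27 for Pde10a on day 8. The Per1 average ran from -0.0244 to 0.0805. The change from day 2 to day 10 ran from -0.56 to 0.65 for Ppargc1a and -0.32 to 0.50 for Nr4a3, and the trend from -0.43 to 0.55 and -0.38 to 0.27. Per1 ran from -0.12 to 0.18 in MyoD day 10 against MEFs and from -0.12 to 0.34 in iMPCs against F/R/C day 10, where Nr4a2 ran from -1.16 to 1.70. Pde10a ran from -0.27 to 0.23 in bulk iMPCs against myoblasts, and Per1 from -0.53 to 0.30 and Sik1 from -0.76 to 0.10 in the sorted cells.

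The numbers of all genes called moved by over 1.5 times mainly without a minimum fold, to 1401, 4023, 4640, 5756 and 7108 on the 5 days (854, 2294, 2663, 3233 and 4037 with it), 10654 in the average (3823), 3135 in the trend (1949), 6317 and 5088 in MyoD days 2 and 10 against MEFs (3889 and 3279), 5899 and 9216 in F/R/C days 2 and 10 against MEFs (3531 and 6025), and 3549, 5693 and 8233 for iMPCs against F/R/C day 10, bulk and sorted myoblasts (1658, 3396 and 5199). With only the groups compared they were 1515 on day 2, 2146 in MyoD day 10 against MEFs and 1147 for bulk iMPCs against myoblasts, and without the filter 649 (1041) for the change from day 2 to day 10. Library totals shifted the median of all genes on day 2 from -0.0015 to 0.12, on day 10 from -0.067 to 0.11 and in MyoD day 2 against MEFs from 0 to -0.19. With them 487 genes were higher and 404 lower on day 2 (369 and 485 with TMM), 1710 and 952 on day 6 (1426 and 1237), 2020 and 1206 on day 8 (1594 and 1639), 2210 and 1834 on day 10 (1717 and 2320), and 1860 and 2355 in MyoD day 2 against MEFs (2136 and 1753).

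The replicate block also called Ppargc1a on day 8 (1.55, adjusted p 0.0452), Nr4a1 in MyoD day 10 against MEFs (-1.40, adjusted p 0.0231) and Nr4a1 in the change from day 2 to day 10 (-2.08, adjusted p 0.0366), and took the Sik1 average past the fold threshold (1.02); it changed no other call beside that of Nr4a2 given above. Low read numbers limit Ppargc1a in MEFs and sorted iMPCs.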

Other observations

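The start sites of Nr4a1 and Nr4a3 differed between groups in the authors' estimates by transcript. Transcripts of Nr4a1 from the start at chr15:101266846, whose window is printed above, held 29.7% of the gene's counts in sorted myoblasts (26.8% to 32.2% in single libraries) and 62.9% to 94.2% on average in the other 14 groups. In sorted myoblasts the upstream start at 101254269 held 69.2% (66.1% to 72.5%), and no library of another group reached that share.

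For Nr4a3, transcripts from the start at chr4:48049114 held 84.0% of the counts in bulk iMPCs (68.7% to 94.6%), 79.8% in sorted iMPCs (67.6% to 100.0%) and 72.7% in sorted myoblasts (64.9% to 80.8%). In F/R/C day 10 cells they held 12.1%, with 20.8% in the highest library, and the upstream cluster from 48045153 held 85.6%. Libraries of MEFs and bulk myoblasts were uneven, with up to 69.5% and 84.4% at 48049114. These shares were not tested, and the split between overlapping transcripts rests on few reads where the gene is low. The 6 sorted libraries also carry another length setting, whose part in these shares was not tested.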
